A study of Mus musculus with 21 samples.

Results

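The 50 genes described here drive or carry out the cell cycle and DNA replication: cyclins and their kinases, E2F and mitotic transcription factors, the replication helicase and its loaders, nucleotide supply, mitotic kinases, kinetochore, spindle and chromosome proteins. They were chosen as a list of symbols by function. The rule used no expression value, but earlier results of these data were known when the list was made. They were followed across the 21 libraries of the series. Each of the 50 symbols matched 1 of the 55487 Ensembl identifiers of the count table. Each also passed the filter on low counts, and the lowest count of a member in any library was 67 (Gins1).

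The series is a mouse hepatocellular carcinoma model made with Hepa1-6 cells, a mouse hepatoma line, in C57BL/6 mice. Polyadenylated RNA of frozen tumour tissue was sequenced to ask how B cells bear on checkpoint antibody treatment. WT mice received isotype control antibody (5 libraries) or anti-PD1 plus anti-CTLA4, called the combination below (5 libraries). Mice whose genotype is given as B-cell depletion received isotype (6 libraries) or the same combination (5 libraries). The antibodies block the T-cell inhibitory receptors PD-1 and CTLA-4. The labels give no age, dose, time of sampling or means of depletion, and do not say that each library is a separate animal. The p-values therefore measure the spread between these samples, which may be technical in part.

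Cells enter the cycle when D cyclins and their G1 kinases inactivate the retinoblastoma family, which frees E2F factors to transcribe cyclin E and the replication genes. Cdc6 and Cdt1 load the Mcm helicase onto origins, and Cdc45 and the GINS complex activate it for S phase. The mitotic genes form a later wave transcribed with B-Myb (Mybl2) and Foxm1. Cyclin B with Cdk1, the Aurora and Polo kinases and the kinetochore proteins then carry cells through mitosis until Cdc20 and Ube2c switch on the anaphase-promoting complex. Most of these transcripts are scarce in resting hepatocytes and abundant in dividing hepatoma cells, lymphocytes and stroma.

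Library totals ran from 9523017 to 19166818 counts (median 15898032). Levels are counts divided by the library total and scaled to CPM, the usual depth-scaled count, and 1 CPM was 9.52 counts in the shallowest library. The hepatocyte and hepatoma list was detected in every group: its summed level was 1168 to 4354 CPM in WT isotype, 217 to 1268 in WT combination, 1637 to 3265 in B-depleted isotype and 946 to 2452 in B-depleted combination. The 8 B-cell genes summed to 7.94 to 17.5 CPM in WT isotype and 5.51 to 14.95 in B-depleted isotype, which overlap, and to 32.8 to 72.3 and 12.95 to 26.8 under the combination, which do not. In bulk tumours, fewer cells of a type and less RNA per cell cannot be told apart.

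Per length (RPKM, the CPM of a gene divided by its exonic kilobases), averaged over all libraries, Ccnd1 stood first among the members at 132. Top2a (48.6), Mki67 (40.7), Mcm6 (28.8) and Pcna (27.3) followed. At the low end were E2f2 (2.98) and Gins2 (2.26). The levels below are CPM, which compare 1 gene between libraries and not genes with each other.

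In WT tumours 33 of the 50 members fell under the combination and 2 rose, Ccnd2 and E2f2, by edgeR's quasi-likelihood test (adjusted p under 0.05 over 19061 genes). The other 15 did not pass. The background of that comparison is high: 50% of all genes tested were called, 25.0% higher and 25.0% lower. The median log2 fold change of the members was -0.46, against -0.0009 over all genes tested, and 48 of the 50 values were negative. Called genes are said to rise or fall, and each bracket gives the log2 fold change ± SE and the adjusted p of this edgeR fit. The SE was derived as the absolute log2 fold change divided by the square root of the test's F statistic. In 8 members every WT combination library lay below every WT isotype library (Cdk2, Foxm1, Ccnb1, Aurka, Plk1, Bub1, Kif20a and Kif23), and in Ccnd2 and E2f2 every one lay above. Over all genes tested, 14.3% separated downward in this way and 15% upward. The plot of both antibody responses by role shows the members in order.

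**Figure D1:**
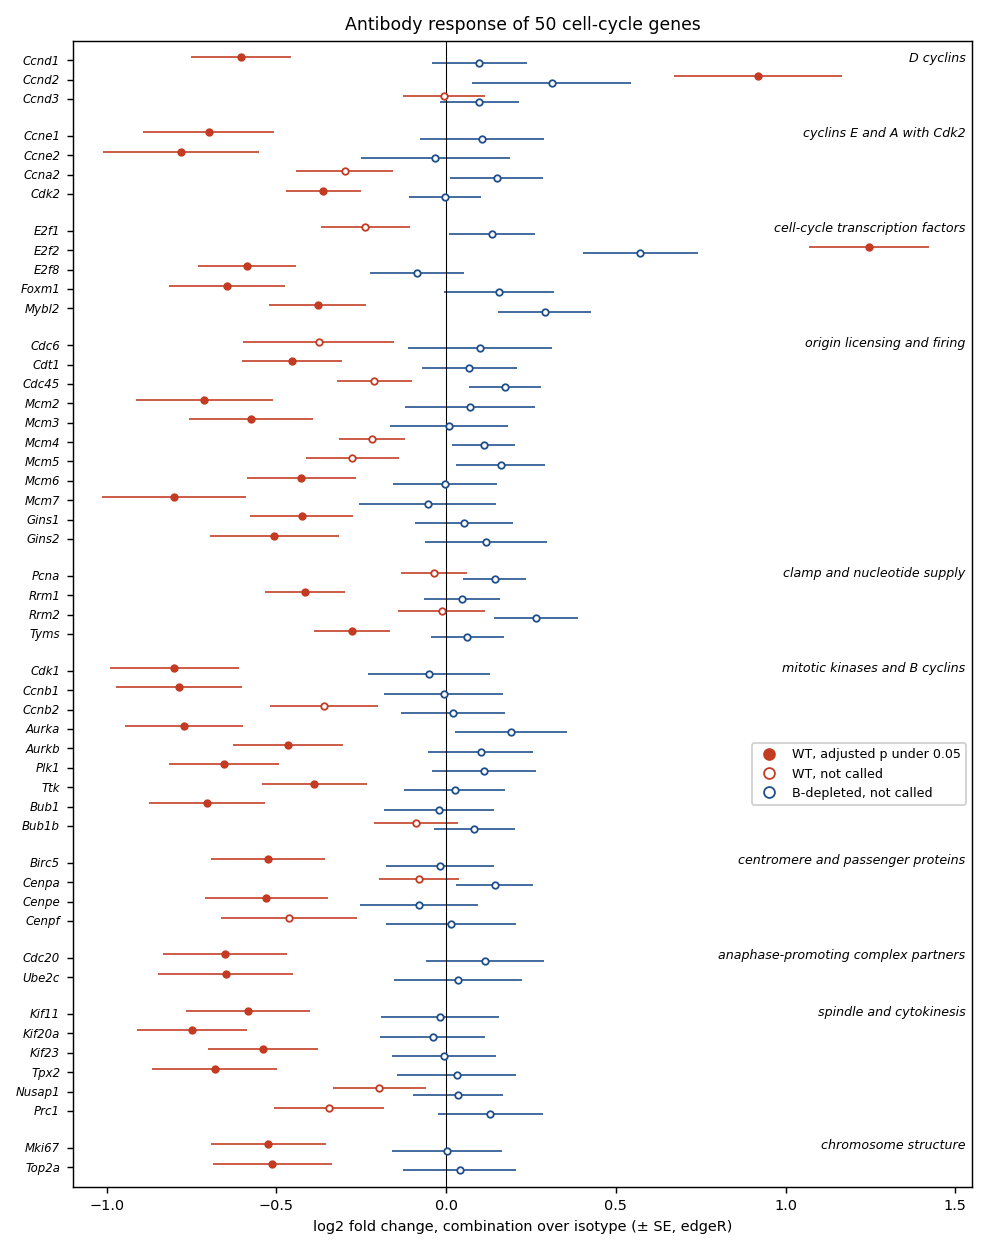
Log2 fold change (combination over isotype, ± SE) of each member, grouped by role, in WT (red) and B-depleted tumours (blue), with filled points for an adjusted p under 0.05. In WT, 33 members lie below 0 and pass, and Ccnd2 and E2f2 pass above 0, while the B-depleted points run from -0.09 (E2f8) to 0.57 (E2f2) and none passes.

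The D cyclins, which couple growth signals to the G1 kinases, moved apart. Ccnd1 was at 716, 781, 646, 623 and 702 CPM in WT isotype and at 656, 395, 538, 361 and 302 in WT combination. It fell (-0.61 ± 0.15, adjusted p = 0.00255), although the highest treated library, replicate 1, lay inside the isotype range. Ccnd2 was at 129.8, 149, 59.2, 97.6 and 114 CPM in WT isotype and at 179, 220.1, 162, 252 and 206 in WT combination. It rose (0.92 ± 0.25, adjusted p = 0.00522), and the lowest treated library was above the highest control. Ccnd3 was at 81.4, 81.6, 109.9, 124 and 115 CPM under isotype and 116, 88.9, 97.9, 103 and 97.3 CPM under the combination, with overlapping groups and a fold change near 0 (-0.01 ± 0.12, adjusted p = 0.969).

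Because the 3 D cyclins share partners, their composition was also set out per length, as each cyclin's share of their summed RPKM. Ccnd2 made up 4.03 to 8.29% (median 6.96%) of D-cyclin transcript in WT isotype and 11.1 to 23.3% (median 19.9%) in WT combination, without overlap. The share of Ccnd1 was 84.4 to 87.9% in WT isotype and 66.0 to 81.2% in WT combination. In B-depleted tumours Ccnd2 made up 4.35 to 11.03% (median 5.70%) under isotype and 6.81 to 9.95% (median 7.79%) under the combination, which overlap.

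**Figure D2:**
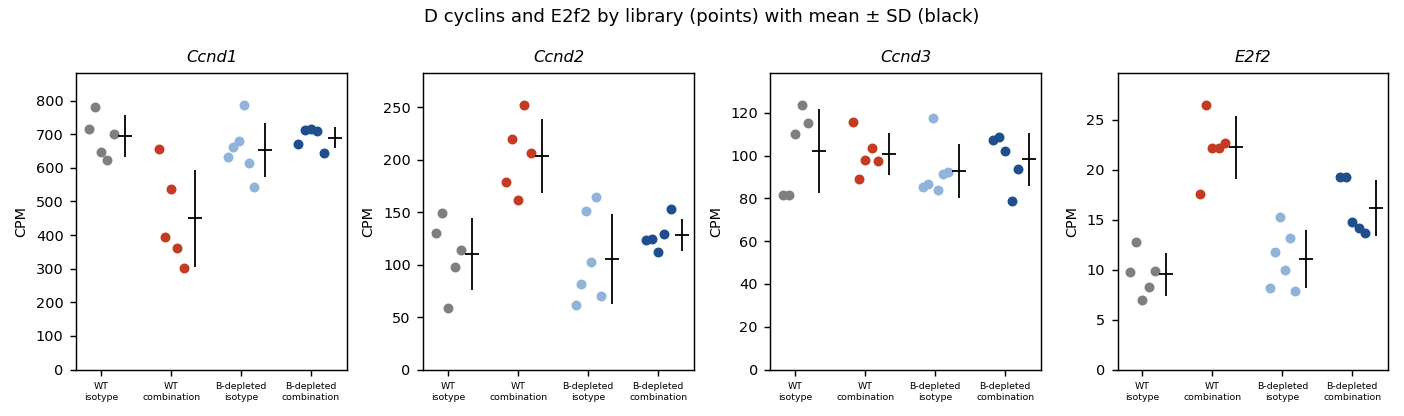
CPM of the 3 D cyclins and of E2f2 in each of the 21 libraries by group (points), with mean and SD (black). Ccnd2 and E2f2 are higher in every WT combination library than in every WT isotype library, Ccnd1 is lower in WT combination on average, and Ccnd3 overlaps in all groups.

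Of the 4 genes for cyclins E and A and their kinase Cdk2, which drive S phase entry, 3 fell (median -0.53). Ccne1 (cyclin E1) was at 8.94, 11.4, 19.3, 17.2 and 17.2 CPM in WT isotype and 11.6, 8.37, 10.6, 6.64 and 7.82 in WT combination (-0.70 ± 0.19, adjusted p = 0.00576). Treated replicates 2, 4 and 5 were under all controls, and replicates 1 and 3 overlapped the 2 lowest controls. Ccne2 fell by a similar size (-0.78 ± 0.23, adjusted p = 0.00906) and the kinase Cdk2 by less (-0.36 ± 0.11, adjusted p = 0.011). Ccna2 (cyclin A2), which acts through S phase and into mitosis, was at 64.9, 80.9, 74.6, 74.4 and 81.5 CPM under isotype and 83.2, 53.3, 72.7, 45.8 and 47.1 CPM under the combination and did not pass (-0.30 ± 0.14, adjusted p = 0.0883). Treated replicates 1 and 3 were inside or above its control range and the other treated libraries below it.

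Among the transcription factors 3 of 5 fell and 1 rose. E2f2, an activator of the E2F family, was at 9.72, 12.8, 6.997, 8.30 and 9.87 CPM in WT isotype and 17.5, 26.5, 22.2, 22.2 and 22.7 in WT combination. Its rise (1.25 ± 0.18, adjusted p = 6.76e-05) had the smallest p of any member, and all treated libraries exceeded all controls. E2f1, another activator of the family, was at 21.5, 23.7, 29.7, 28.5 and 31.5 CPM under isotype and 25.6, 22.97, 28.2, 17.6 and 18.6 CPM under the combination, with overlapping groups (-0.24 ± 0.13, adjusted p = 0.139). E2f8, a repressor of the same family, fell (-0.59 ± 0.14, adjusted p = 0.00292).

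Foxm1, which switches on mitotic genes in G2, was at 80.2, 87.5, 79.2, 89.2 and 96.6 CPM in WT isotype and 73.8, 49.3, 73.6, 37.8 and 38.2 in WT combination. It fell (-0.65 ± 0.17, adjusted p = 0.00461) and the groups did not overlap, although treated replicates 1 and 3 lay just under the lowest control. Mybl2 (B-Myb) was at 18.5, 19.5, 18.2, 21.4 and 23.1 CPM under isotype and 21.1, 14.3, 17.7, 11.2 and 12.1 CPM under the combination and fell (-0.38 ± 0.14, adjusted p = 0.0336), with treated replicate 1 inside the control range. The call of Mybl2 was lost without WT isotype replicate 4 (adjusted p = 0.0629) or 5 (0.0726), or without WT combination replicate 2 (0.0667), 4 (0.114) or 5 (0.109).

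Of the 11 origin licensing and firing genes 7 fell (median -0.43) and none rose. Mcm7, a subunit of the Mcm2-7 helicase, was at 75.3, 81.7, 121, 114 and 115 CPM in WT isotype and 68.2, 46.9, 89.8, 42.4 and 39.7 in WT combination. It fell by the most negative value of the 50 (-0.80 ± 0.21, adjusted p = 0.00468), but treated replicate 3 was above control replicates 1 and 2. The other helicase subunits ranged from -0.71 (Mcm2) to -0.22 (Mcm4). Mcm2, Mcm3 and Mcm6 passed, and Mcm4 and Mcm5 did not. Mcm6 lost its call without WT isotype replicate 3 or 4, or WT combination replicate 2, 4 or 5 (adjusted p from 0.0645 to 0.108). Cdc6, the loader, was at 9.61, 14.1, 21.5, 19.9 and 19.7 CPM under isotype and 19.5, 10.5, 14.4, 10.6 and 9.77 CPM under the combination. It did not pass (-0.38 ± 0.22, adjusted p = 0.163), and its lowest control, replicate 1, lay under every treated library.

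Cdt1, which brings the helicase to origins with Cdc6, was at 33.5, 35.7, 41.2, 41.6 and 40.2 CPM in WT isotype and 32.6, 27.4, 36.9, 21.1 and 20.5 in WT combination and fell (-0.45 ± 0.15, adjusted p = 0.0153). Gins1, of the complex that activates the helicase, was at 6.40, 8.18, 7.94, 7.56 and 8.05 CPM under isotype and 7.14, 4.44, 7.11, 4.92 and 4.37 CPM under the combination and also fell (-0.43 ± 0.15, adjusted p = 0.0252). In both genes treated replicates 2, 4 and 5 were under the control range, as was replicate 1 for Cdt1. Cdt1 lost its call without WT combination replicate 4 (adjusted p = 0.0543) or 5 (0.0548), and Gins1 without WT isotype replicate 3 (0.0613) or WT combination replicate 2 (0.0673), 4 (0.0681) or 5 (0.0825).

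Of the sliding clamp and nucleotide enzymes 2 of 4 fell (median -0.16). Rrm1, the large subunit of ribonucleotide reductase, was at 127, 132, 129, 138 and 139 CPM in WT isotype and 128, 95.5, 116, 79.6 and 72.6 in WT combination and fell (-0.42 ± 0.12, adjusted p = 0.00669). Its cycle-regulated partner Rrm2 was at 28.7, 36.1, 39.7, 46.3 and 45.1 CPM under isotype and 42.01, 38.6, 43.7, 31.4 and 35.7 CPM under the combination, and all treated libraries were inside the control range (-0.01 ± 0.13, adjusted p = 0.943). Tyms, thymidylate synthase, fell (-0.28 ± 0.11, adjusted p = 0.0451) and lost its call in 10 of the 21 fits that left out 1 library (adjusted p from 0.0503 to 0.157). Those libraries were WT isotype and WT combination replicates 2 to 5, B-depleted isotype replicate 1 and B-depleted combination replicate 3. The clamp Pcna had a value of -0.03 ± 0.10, adjusted p = 0.783.

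The mitotic kinases and B cyclins had a median of -0.65, the same as the anaphase-promoting complex partners, and 7 of 9 fell. Aurka, the centrosomal Aurora kinase, was at 25.9, 29.7, 36.6, 32.2 and 34.2 CPM in WT isotype and 25.3, 17.3, 24.5, 12.9 and 11.9 in WT combination (-0.77 ± 0.17, adjusted p = 0.00155). Every treated library was under every control, with replicates 4 and 5 lowest. Cdk1, the mitotic kinase itself, was at 62.3, 73.8, 92.4, 90.7 and 80.9 CPM under isotype and 64.9, 34.8, 61.8, 29.7 and 35.8 CPM under the combination (-0.80 ± 0.19, adjusted p = 0.00218). Its treated replicate 1 lay within the control range.

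Ccnb1 (cyclin B1), the partner of Cdk1, was at 40.6, 46.8, 61.9, 59.7 and 59.3 CPM in WT isotype and 39.3, 27.3, 39.3, 25.4 and 22.3 in WT combination (-0.79 ± 0.19, adjusted p = 0.00212), without overlap. Plk1, the Polo kinase, was at 24.3, 26.01, 23.6, 24.9 and 30.1 CPM under isotype and 20.1, 14.5, 21.8, 12.2 and 12.2 CPM under the combination (-0.65 ± 0.16, adjusted p = 0.00284), also without overlap. Bub1, a spindle checkpoint kinase, was at 33.5, 34.9, 41.6, 39.97 and 38.1 CPM under isotype and 31.8, 22.4, 27.8, 16.3 and 15.8 CPM under the combination (-0.71 ± 0.17, adjusted p = 0.00247), without overlap and with replicates 4 and 5 lowest. Its checkpoint relative Bub1b was at 37.8, 42.1, 38.9, 37.1 and 42.7 CPM under isotype and 40.5, 37.9, 46.2, 30.3 and 29.2 CPM under the combination (-0.09 ± 0.12, adjusted p = 0.57), where replicates 4 and 5 were under the control range and replicate 3 above it. Aurkb, the kinase of the passenger complex, fell (-0.47 ± 0.16, adjusted p = 0.0229), and lost its call without WT combination replicate 4 (adjusted p = 0.0744) or 5 (0.0741). Ttk, the checkpoint kinase Mps1, fell (-0.39 ± 0.16, adjusted p = 0.0441) but lost its call without WT isotype replicate 1, 2, 3 or 5, WT combination replicate 2, 4 or 5, or B-depleted isotype replicate 1 (adjusted p from 0.0532 to 0.141). Ccnb2 did not pass (-0.36 ± 0.16, adjusted p = 0.0667).

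At the centromere 2 of 4 genes fell (median -0.49). Birc5 (survivin), a subunit of the passenger complex, was at 28.3, 35.2, 32.6, 31.95 and 36.2 CPM in WT isotype and 31.04, 21.6, 29.1, 15.8 and 15.1 in WT combination (-0.52 ± 0.17, adjusted p = 0.0143). Cenpa, the histone H3 variant that marks centromeres, was at 47.7, 53.5, 44.7, 45.2 and 47.8 CPM under isotype and 51.8, 42.1, 54.5, 37.2 and 37.1 CPM under the combination (-0.08 ± 0.12, adjusted p = 0.591). Treated Birc5 reached into the control range in replicates 1 and 3, and treated Cenpa in replicate 1, while replicate 3 was above it. Cenpe, a kinetochore motor, fell (-0.53 ± 0.18, adjusted p = 0.0208), and was not called without WT isotype replicate 3 (adjusted p = 0.0501) or WT combination replicate 4 (0.0655) or 5 (0.0664). Cenpf had a value of -0.46 ± 0.20, adjusted p = 0.0614.

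Both partners of the anaphase-promoting complex fell. Cdc20, an activator of the complex, was at 18.1, 24.5, 24.3, 20.5 and 25.6 CPM in WT isotype and 19.8, 13.4, 19.5, 9.43 and 8.86 in WT combination (-0.65 ± 0.18, adjusted p = 0.00678). Ube2c, the complex's ubiquitin-conjugating enzyme, was at 33.8, 40.4, 44.5, 42.7 and 42.4 CPM under isotype and 37.4, 21.1, 34.9, 16.9 and 18.05 CPM under the combination (-0.65 ± 0.20, adjusted p = 0.0112). In both, treated replicates 2, 4 and 5 were under all controls and replicates 1 and 3 overlapped the lowest control.

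Of the spindle and cytokinesis genes 4 of 6 fell (median -0.56). Kif20a, a kinesin of the central spindle, was at 38.5, 40.6, 48.2, 43.2 and 47.8 CPM in WT isotype and 35.5, 20.6, 34.3, 19.9 and 17.9 in WT combination (-0.75 ± 0.16, adjusted p = 0.00115), without overlap. Nusap1, which bundles spindle microtubules, was at 20.6, 26.8, 24.6, 31.4 and 26.3 CPM under isotype and 27.3, 22.6, 25.3, 19.4 and 16.9 CPM under the combination (-0.20 ± 0.14, adjusted p = 0.237), where all but replicates 4 and 5 were inside the control range. The kinesins Kif11 (-0.58) and Kif23 (-0.54) and the Aurora A partner Tpx2 (-0.68) passed, and Prc1 (-0.34) did not.

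Mki67, the antigen used to score proliferating cells, was at 387, 406, 441, 450.2 and 464 CPM in WT isotype and 411, 292, 376, 188 and 209 in WT combination (-0.52 ± 0.17, adjusted p = 0.0151). Top2a, the topoisomerase of dividing cells, was at 382, 437, 445, 476 and 469 CPM under isotype and 409, 281, 425, 213 and 199 CPM under the combination (-0.51 ± 0.18, adjusted p = 0.0206). In both genes treated replicates 2, 4 and 5 were under the control range and replicate 1 inside it. Replicate 3 was under it for Mki67 and inside it for Top2a. The calls were lost without WT combination replicate 5 for Mki67 (adjusted p = 0.0512) and without replicate 4 (0.0665) or 5 (0.0648) for Top2a.

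**Figure D3:**
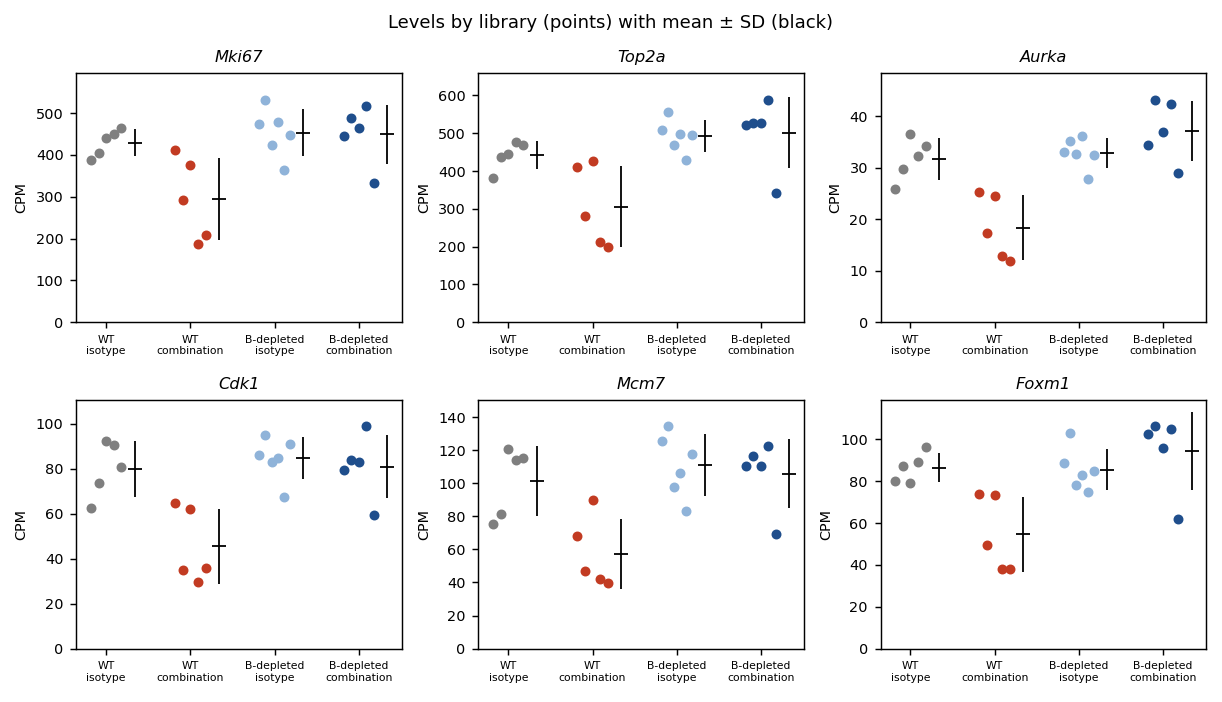
CPM of Mki67, Top2a, Aurka, Cdk1, Mcm7 and Foxm1 in each of the 21 libraries by group (points), with mean and SD (black). In each gene WT combination replicates 2, 4 and 5 lie lowest, and B-depleted combination replicate 5 is the lowest of its group.

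The fall was uneven among the WT combination libraries. Replicates 2, 4 and 5 had 42, 43 and 44 of the 50 members below the range of the 5 WT isotype libraries, and replicates 1 and 3 had 10 and 16. The mean log2 CPM of the members was 5.34 to 5.65 in WT isotype, and 5.46, 5.05, 5.50, 4.80 and 4.77 in WT combination replicates 1 to 5. Over 21 fits that each left out 1 library, between 24 and 43 members were called, against 35 with all. The lowest counts were 24 without WT combination replicate 5 and 25 without replicate 4, and the highest was 43 without replicate 1. Of the 33 falls 22 kept their call in every such fit, as did both rises. The heat map of all members shows the same libraries apart.

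**Figure D4:**
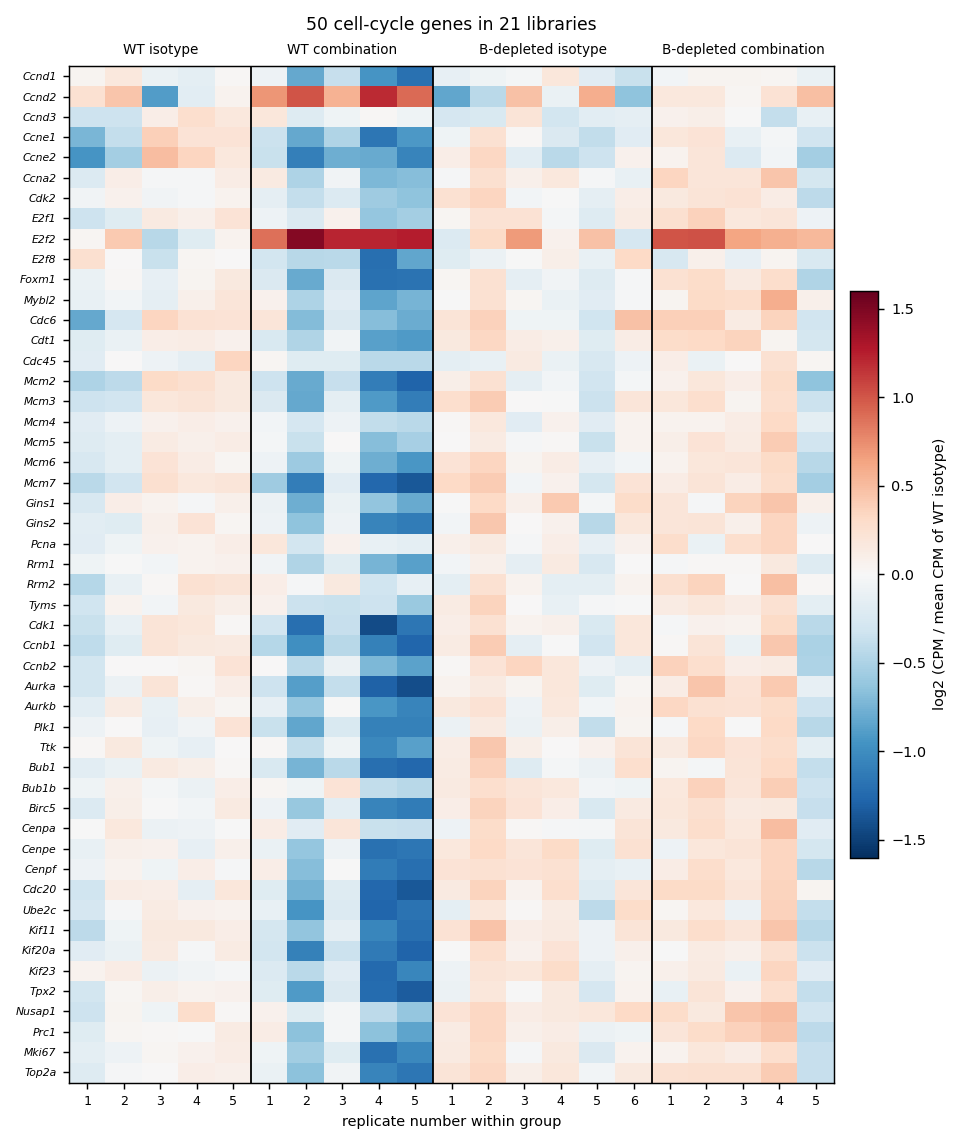
Log2 ratio of each member's CPM to its mean in WT isotype, for 50 genes (rows, by role) in 21 libraries (columns, by group and replicate). WT combination replicates 2, 4 and 5 are blue in nearly all rows, with 42, 43 and 44 members under the WT isotype range, and Ccnd2 and E2f2 are red.

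Other cell types moved in the same comparison. The 13 T-cell genes all rose in WT (median 1.95), from summed levels of 103 to 221 CPM in WT isotype to 480 to 763 in WT combination, and none was at 0 throughout a group. All 9 macrophage genes rose (median 1.14; 814 to 1624 against 1861 to 3623 CPM), as did 6 of 8 fibroblast genes (2788 to 5203 against 7548 to 27143 CPM) and 5 of 7 endothelial genes (169 to 254 against 252 to 509 CPM). The 6 B-cell genes tested also rose (median 2.07), with 1 of 9 tested immunoglobulin genes and 2 of 6 skeletal muscle genes. As 25.0% of all genes tested rose here, the immunoglobulin count was below that share and the muscle count near it. Of the 9 hepatocyte and hepatoma genes tested 7 fell (median -2.13). Replicates 4 and 5, lowest for the members, were highest for fibroblast genes and lowest for hepatocyte and hepatoma genes. The part of these shifts in the members' fall was not tested.

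The 4 Y-linked genes Ddx3y, Eif2s3y, Kdm5d and Uty also rose in WT, from summed levels of 47.6 to 79.2 CPM to 135 to 250.5 CPM, without overlap. With the log2 of that sum as a covariate, 0 of 50 members were called by edgeR (3 at an unadjusted p under 0.05, smallest adjusted p 0.193), against 77 genes called in all. The members' median then stood at 0.12, with 32 values positive, and 32 members, 19 of the 35 called ones among them, took the opposite sign. E2f2 stayed positive at 0.77 and Ccnd2 stood at -0.33. The covariate itself separated the WT groups, so its part and that of the antibodies cannot be told apart in this fit.

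**Figure D5:**
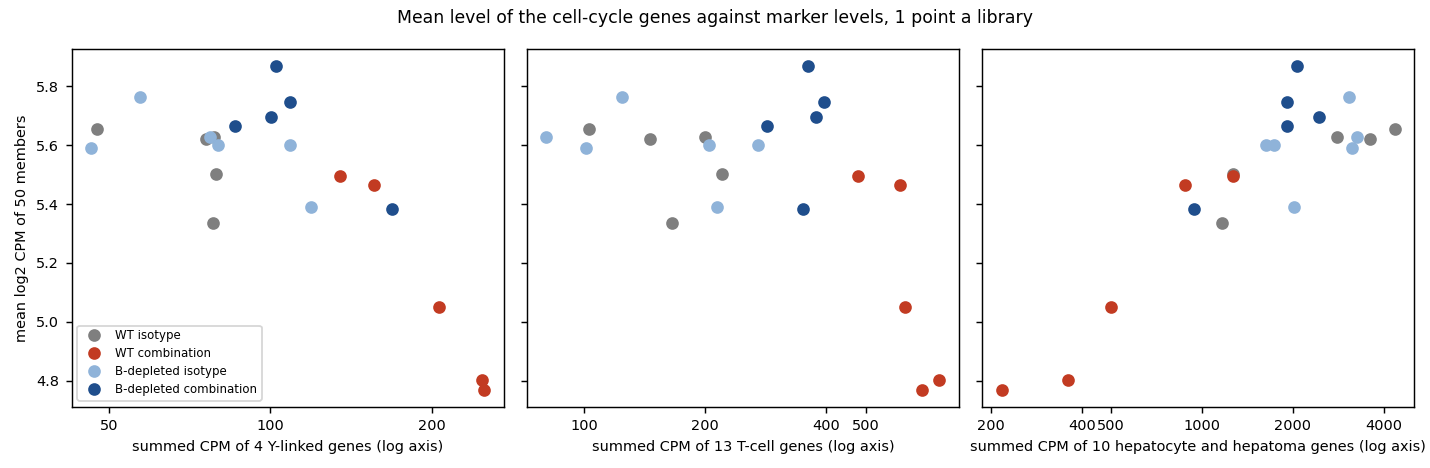
Mean log2 CPM of the 50 members against the summed CPM of 4 Y-linked, 13 T-cell and 10 hepatocyte and hepatoma genes (log axes), 1 point a library, coloured by group. The 3 WT combination libraries lowest for the members (4.77, 4.80 and 5.05) have the highest Y-linked and the lowest hepatocyte and hepatoma sums.

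The rest of the pathway was read from 11 lists of 136 partner genes, all tested; 60 fell and 10 rose in WT (median -0.31), beside the same background. Genes of the G1 switch moved in both directions. The kinase Cdk4 (-0.77 ± 0.14, adjusted p = 0.00039) and Cdk7 (-0.35 ± 0.08, adjusted p = 0.00146), which activates other cycle kinases, fell with Cdk6 (-0.29). The retinoblastoma gene Rb1 (1.10 ± 0.17, adjusted p = 9.44e-05) and its relative Rbl2 (0.67 ± 0.09, adjusted p = 3.99e-05) rose. Of the 7 CDK inhibitors Cdkn2b (-1.02 ± 0.22, adjusted p = 0.00126) and Cdkn2a (-0.62 ± 0.20, adjusted p = 0.0137) fell, and Cdkn1b (0.17 ± 0.07, adjusted p = 0.0354) and Cdkn2d (0.42 ± 0.17, adjusted p = 0.0414) rose. The p53-induced inhibitor Cdkn1a had a value of -0.15 ± 0.22, adjusted p = 0.572.

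Of the E2F, DP and MuvB partners 6 of 12 fell and 1 rose. Lin9, a core MuvB subunit, fell (-0.64 ± 0.13, adjusted p = 0.000654), with E2f5 (-0.47) and the DP partners Tfdp1 (-0.48) and Tfdp2 (-0.36). In the origin list 6 of 15 fell, led by the recognition subunits Orc6 (-0.70 ± 0.13, adjusted p = 0.000406) and Orc2 (-0.60 ± 0.12, adjusted p = 0.000595), then Ticrr (-0.62) and Orc1 (-0.83). Of the polymerases and loaders 5 of 22 fell and 1 rose, where 25.0% of all genes tested fell and 25.0% rose. Falls were thus no more frequent in this list than over all genes. Those that fell include the clamp loader subunit Rfc3 (-0.72 ± 0.18, adjusted p = 0.00378), the single-strand binding subunits Rpa3 (-0.54) and Rpa1 (-0.42) and the primase Prim1 (-0.48).

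Nucleotide supply split: 4 of 8 partners fell and 2 rose. The salvage kinase Dck (0.72 ± 0.10, adjusted p = 5.6e-05) and the dNTP hydrolase Samhd1 (1.22 ± 0.21, adjusted p = 0.000249) rose, and the synthesis enzymes Ctps (-0.48 ± 0.11, adjusted p = 0.00156) and Dtymk (-0.57 ± 0.14, adjusted p = 0.00283) fell. In the kinetochore list 9 of 15 fell, among them the checkpoint genes Mad2l1 (-0.83 ± 0.19, adjusted p = 0.0021), Bub3 (-0.54) and Mad1l1 (-0.37) and the centromere gene Cenpi (-0.59). Of the spindle partners 10 of 18 fell, with Ckap2 (-0.96 ± 0.18, adjusted p = 0.000487), Kif4 (-0.61), Dlgap5 (-0.48) and Plk4 (-0.43) of smallest p.

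Securin (Pttg1; -1.05 ± 0.26, adjusted p = 0.00302), the phosphatase Cdc25a (-0.55 ± 0.12, adjusted p = 0.00132) and the kinase Wee1 (-0.40) were the 3 of 8 mitotic switch genes to fall. Of the condensins and cohesins 6 of 13 fell, with Rad21 (-0.73 ± 0.17, adjusted p = 0.00164), Ncapd2 (-0.55) and Ncaph2 (-0.39), while Ncapg2 rose (0.35 ± 0.08, adjusted p = 0.0019). Of 12 p53 target genes 6 fell, with Phlda3 (-0.88 ± 0.18, adjusted p = 0.000866), Zmat3 (-0.72) and Aen (-0.70), and Sesn1 rose (1.00 ± 0.23, adjusted p = 0.00162).

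Since most members moved together, the promoters that RefSeq gives for them (GRCm38.p6, 250 bases before to 50 after the start) were searched. Windows were found for 39 of the 50 members (43 windows) and compared with all 32851 windows of that length. The letters searched on both strands were CCAAT, bound by NF-Y; TTTGAA and TTTAAA, the cell-cycle homology region that MuvB complexes bind (CHR); and the E2F letters TTTCCCGC, TTTGGCGC and TTCCCGCC, of which TTTCCCGC and TTCCCGCC can overlap. CCAAT was in 79.1% of member windows and 37.4% of all windows. A CHR match was in 60.5% and 27.6%, and both together in 55.8% and 10.7%. An E2F match was in 20.9% and 3.21%. The windows also differed in base composition, with a median GC content of 60.7% in members and 52.7% in all. The members called lower in WT (26 windows) had CHR letters in 61.5%, E2F letters in 23.1% and CCAAT in 80.8%, close to the 58.8%, 17.6% and 76.5% of the other members (17 windows). A match describes letters in a window and not binding.

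The windows of Aurka (chr2:172370521-172370820, minus strand) and Mcm7 (chr5:138171834-138172133, minus strand) show a mitotic and a replication gene that fell, and that of E2f2 (chr4:136172024-136172323, plus strand) a gene that rose. E2f2 was added after its values were seen. The window nearest the annotated gene start is shown. Its RefSeq start lay 35 bases from the annotated start for Aurka, 539 for Mcm7 and 120 for E2f2. The printed Mcm7 and E2f2 windows do not contain the annotated start. RefSeq gives a second window for Mcm7 and for E2f2, not printed, with 1 CCAAT match for Mcm7 and with 1 CHR and 3 CCAAT matches for E2f2, and neither holds an E2F match. Capitals mark the letters searched, on either strand: ATTGG is CCAAT and GCGGGAAA is TTTCCCGC read from the other strand.
Aurka: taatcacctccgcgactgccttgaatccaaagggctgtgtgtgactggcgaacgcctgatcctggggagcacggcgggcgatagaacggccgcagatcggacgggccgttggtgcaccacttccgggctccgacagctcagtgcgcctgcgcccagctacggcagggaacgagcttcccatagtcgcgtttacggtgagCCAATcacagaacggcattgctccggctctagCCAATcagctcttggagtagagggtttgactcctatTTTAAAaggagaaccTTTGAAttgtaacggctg
Mcm7: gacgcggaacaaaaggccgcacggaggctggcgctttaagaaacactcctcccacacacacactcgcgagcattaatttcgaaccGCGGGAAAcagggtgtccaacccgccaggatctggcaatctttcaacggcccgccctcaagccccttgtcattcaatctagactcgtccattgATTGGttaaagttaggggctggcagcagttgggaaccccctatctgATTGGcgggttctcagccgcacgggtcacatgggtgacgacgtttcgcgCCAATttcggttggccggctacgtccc
E2f2: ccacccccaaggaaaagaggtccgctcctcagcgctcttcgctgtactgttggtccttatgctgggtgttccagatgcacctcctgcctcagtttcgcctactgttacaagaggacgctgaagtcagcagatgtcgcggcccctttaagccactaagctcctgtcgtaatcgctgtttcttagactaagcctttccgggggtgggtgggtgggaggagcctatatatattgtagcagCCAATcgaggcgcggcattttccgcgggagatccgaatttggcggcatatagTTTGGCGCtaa
The Aurka window held 2 CHR and 2 CCAAT matches and no E2F match, the printed Mcm7 window 1 E2F and 3 CCAAT matches, and the printed E2f2 window 1 of each of these.

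In B-depleted tumours no member was called between the combination and isotype by edgeR, against 0.341% of all genes tested (0.304% higher and 0.0367% lower). At an unadjusted p under 0.05 there were 3 members (E2f2, Rrm2 and Mybl2), and DESeq2 and limma voom called 0. The members' median was 0.06 (all genes 0.02). The 50 values ran from -0.09 to 0.57, and 37 were positive. Not passing does not show that the groups are alike. With upper-quartile scaling 29 values were positive. With the Y-linked sum as a covariate 0 were again called, while 48 values were positive, the median was 0.26, 25 members reached an unadjusted p under 0.05 and 13 changed sign. No member's groups were separate in either direction, where 1.14% of all genes separated upward and 0.876% downward.

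E2f2 had the largest value in that comparison (0.57 ± 0.17, adjusted p = 0.139). It was at 7.88 to 15.3 (median 10.9) CPM in B-depleted isotype and at 19.2, 19.3, 14.7, 14.1 and 13.6 in B-depleted combination, where replicates 1 and 2 were above all isotype libraries and the others inside their range. Without the 3 B-depleted libraries richest in B-cell and immunoglobulin transcripts it was called (0.73, adjusted p = 0.0304). Left out were B-depleted isotype replicates 3 and 5, which held the highest E2f2 levels of their group (15.3 and 13.2 CPM). B-depleted combination replicate 2, also left out, held the highest of its group (19.3 CPM). Ccnd2 was at 61.7 to 164 (median 92.00) CPM under isotype and 123, 124, 112, 129 and 153 CPM under the combination (0.31 ± 0.24, adjusted p = 0.561). The treated libraries were close together, inside the wide isotype range.

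Ccnd1 was at 542 to 787 (median 647) CPM in B-depleted isotype and 672, 713, 714, 708 and 643 in B-depleted combination (0.10 ± 0.14, adjusted p = 0.775). Among the other early genes, Cdk2 had a value of 0.00 ± 0.11, Ccne1 0.10 ± 0.18, Foxm1 0.16 ± 0.16 and Mybl2 0.29 ± 0.14. Foxm1 was at 75.1 to 103 (median 84.03) CPM under isotype and 102, 106, 95.9, 105 and 61.9 CPM under the combination, and the treated replicate 5 was below all isotype libraries while replicates 2 and 4 were above them.

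Mcm7 was at 83.3 to 135 (median 112) CPM in B-depleted isotype and 110.5, 117, 111, 123 and 69.6 in B-depleted combination (-0.05 ± 0.20, adjusted p = 0.925). Aurka was at 27.7 to 36.1 (median 32.9) CPM under isotype and 34.3, 43.1, 36.8, 42.3 and 28.99 CPM under the combination (0.19 ± 0.16, adjusted p = 0.609), with treated replicates 2 to 4 above the isotype range. Cdk1 was at 67.6 to 94.99 (median 85.4) CPM under isotype and 79.3, 83.9, 83.1, 98.9 and 59.5 CPM under the combination (-0.05 ± 0.18, adjusted p = 0.923). In these 3 genes the groups overlapped.

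Mki67 was at 365 to 531 (median 461) CPM in B-depleted isotype and 446, 489, 464, 516 and 332 in B-depleted combination (0.00 ± 0.16, adjusted p = 0.996). Top2a was at 429 to 556 (median 497) CPM under isotype and 522, 528, 527, 588 and 342 CPM under the combination (0.04 ± 0.17, adjusted p = 0.935). Treated replicate 5 was the lowest library of both genes in these groups. That library had 30 of the 50 members under the WT isotype range, against 0 to 1 in the other treated B-depleted libraries. It also had the highest fibroblast sum of its group (25240 CPM, others 2991 to 8942) and Y-linked sum (169 CPM, others 85.9 to 109), and the lowest hepatocyte and hepatoma sum (946 CPM, others 1913 to 2452). Whether these bear on its members' levels was not tested.

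Under isotype control antibody, no member was called between B-depleted and WT tumours by edgeR, against 0% of all genes tested. None reached an unadjusted p of 0.05, and DESeq2 and limma voom also called 0. The members' median was 0.06 (all genes -0.01), and their values ran from -0.16 (Ccnd3) to 0.21 (Nusap1). Nusap1 was at 20.6, 26.8, 24.6, 31.4 and 26.3 CPM in WT isotype and 28.1 to 32.6 (median 29.8) in B-depleted isotype (0.21 ± 0.13, adjusted p = 0.9998). Mki67 (0.06 ± 0.16), Aurka (0.03 ± 0.16), Mcm7 (0.11 ± 0.20) and E2f2 (0.20 ± 0.17) were among the rest. No member's groups were separate, where 0.283% of all genes separated upward and 0.178% downward.

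Under the combination, B-depleted tumours had higher levels than WT in 41 of the 50 members and lower levels in 2, Ccnd2 and E2f2. Over all genes tested 29.1% were called, 15.5% higher and 13.5% lower. The members' median was 0.60, against 0.0034 over all genes. The WT combination libraries enter this comparison and the WT response, so the 2 are not independent. Every licensing gene but Cdc6 and Cdc45 passed, as did 8 of 9 mitotic kinases and B cyclins, all 6 spindle genes and both anaphase-promoting complex partners. The 7 that did not pass were Ccnd3, Cdc6, Cdc45, Pcna, Rrm2, Bub1b and Cenpa.

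Aurka had the largest difference (1.00 ± 0.17, adjusted p = 0.00429), at 18.4 ± 6.295 CPM in WT combination and 37.1 ± 5.86 in B-depleted combination (SD, n = 5 each). Its B-depleted libraries were all above its WT libraries. Cdc20 (0.90 ± 0.18, adjusted p = 0.00635), Mcm7 (0.86 ± 0.21, adjusted p = 0.0113), Ccnb1 (0.83 ± 0.19, adjusted p = 0.00817) and Cdk1 (0.81 ± 0.19, adjusted p = 0.00932) followed. The groups were separate upward in 6 members (Ccne1, E2f8, Gins1, Gins2, Aurka and Cdc20) and downward in Ccnd2, where 4.51% and 6.03% of all genes separated. Of these, Ccne1 (adjusted p = 0.0534), E2f8 (0.0565) and Gins2 (0.0585) lost their call without WT combination replicate 4, and E2f8 (0.0594) and Gins2 (0.0572) also without replicate 5. Cdc20 was at 19.8, 13.4, 19.5, 9.43 and 8.86 CPM in WT combination and 27.9, 27.9, 25.9, 29.00 and 23.3 in B-depleted combination. Gins1 was at 7.14, 4.44, 7.11, 4.92 and 4.37 CPM in WT and 8.72, 7.55, 9.75, 10.4 and 8.07 CPM in B-depleted tumours (0.65 ± 0.15, adjusted p = 0.00936), so the lowest B-depleted library was just above the highest WT library.

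Mki67 was at 295 ± 98.5 CPM in WT combination and 449.5 ± 70.9 in B-depleted combination (0.59 ± 0.17, adjusted p = 0.0185). Top2a was at 306 ± 107 and 501 ± 93.2 CPM (0.69 ± 0.18, adjusted p = 0.0119). Mki67 lost its call without WT combination replicate 4 (adjusted p = 0.0538) or 5 (0.057). Both overlapped between groups through WT replicates 1 and 3 and B-depleted replicate 5. Ccnd2 was lower in B-depleted tumours (-0.68 ± 0.25, adjusted p = 0.0447), as was E2f2 (-0.48 ± 0.18, adjusted p = 0.046). Both calls lie near the threshold: Ccnd2 lost its call in 10 and E2f2 in 14 of the 21 fits without 1 library, with adjusted p up to 0.117 (without WT combination replicate 4) and 0.11 (without WT combination replicate 2).

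The count of members called in this comparison ran from 22 to 46 over those fits, and was 22 without WT combination replicate 4 and 23 without replicate 5. It was 23 with only these 2 groups in the fit. Of the 41 higher members 21 kept their call in every fit without 1 library. With the Y-linked sum as a covariate 0 were called (15 at an unadjusted p under 0.05), with 48 positive values and a median of 0.26. The Y-linked sum was 135 to 250.5 CPM in WT combination and 85.9 to 169 CPM in B-depleted combination. The T-cell sum was 480 to 763 and 284 to 394 CPM. In this comparison 11 of 13 T-cell, 7 of 9 macrophage, 6 of 6 tested B-cell and 8 of 9 tested immunoglobulin genes were lower in B-depleted tumours. So were all 4 Y-linked and 3 of 6 skeletal muscle genes, where 13.5% of all genes tested were lower. The fibroblast and endothelial lists, with 1 of 8 and 1 of 7 genes lower, lay near that share. Of the hepatocyte and hepatoma genes 7 of 9 tested were higher (median 1.48), the direction of most members. The part of these lists in the members' values was not tested.

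Tested as an interaction, the difference between the antibody responses of B-depleted and WT tumours was called in no member by edgeR, against 0.0262% of all genes tested (0.0157% higher and 0.0105% lower). At an unadjusted p under 0.05 there were 36 of 50 members and 4881 of 19061 genes. DESeq2 called 9 members and limma voom 0. The median difference was 0.50, and 48 of 50 values were positive, Ccnd2 (-0.61 ± 0.34) and E2f2 (-0.67 ± 0.24) being the negative ones. Aurka had the smallest adjusted p (0.96 ± 0.24, adjusted p = 0.0745), then Ccnd1 (0.70 ± 0.20, adjusted p = 0.0891) and Plk1 (0.77 ± 0.22, adjusted p = 0.0898). The count depended on single libraries: 16 members were called without WT combination replicate 3, 9 without B-depleted combination replicate 5 and 5 without WT combination replicate 1. Aurka, Foxm1, Mybl2, Ccnd1 and Kif20a were called in each of these 3 fits. No other fit without 1 library called a member. Without both WT isotype replicates 1 and 2, 9 members were called, Aurka, Mybl2 and Kif20a among them but not Foxm1 or Ccnd1.

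Within groups the members varied together. After group means were removed, the median Pearson correlation of log2 CPM over the 1225 pairs was 0.75 across 21 libraries. These libraries differ in depth and tissue composition, and the part of that in the correlations was not tested. Aurka and its activator Tpx2 were the closest pair (0.97), with Mcm3 and Mcm7 (0.97) and Foxm1 and Top2a (0.97) near it. Ccnd2 was negative with 48 of the 49 other members and E2f2 with 45, lowest with Mcm7 (-0.72) and Pcna (-0.57), while they were positive with each other (0.72). Ccnd3 had a median of only 0.11 with the others. These are descriptions, without a test.

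The libraries were made with a stranded kit, but whether counting used strand is not given in the sources used here. In GENCODE M21, 18 members share exonic bases with another gene. In 8 of them, all with the other gene on the opposite strand, these are more than 10% of the exonic length: Gins2 (67.3%, Gse1), Kif20a (29.3%, Cdc23), Ccnd1 (23.4%), Ube2c (22.8%, Tnnc2), Ccne2 (17.4%, Ints8), Ccna2 (12.5%, Exosc9), E2f8 (11.2%) and Prc1 (11.1%, Rccd1). Reads of both genes cannot be told apart there if strand was not used. A further uncertainty applies to Ccnd3, Pcna, Tyms, Ccnb1 and Ccnb2, which have named pseudogenes that could share reads.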

How the data were processed

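Polyadenylated RNA of tumour tissue was sequenced as 21 TruSeq Stranded mRNA libraries, per the labels' protocols. GRCm38, STAR 2.7.2a and cutadapt 2.4 are named in the submitters' processing notes. Which program counted reads, with which strand setting and annotation release, is not given in the sources used here. The authors deposited 1 table of raw read counts per gene, and 346 of its 55487 identifiers carry no symbol (0.037% of counts). Groups came from the labels. Genes were filtered with filterByExpr (minimum count 10), scaled by TMM (factors 0.953 to 1.029) and tested with edgeR 4.0.16 in R 4.3.3 (robust quasi-likelihood fit, 4 groups, 21 libraries, Benjamini-Hochberg threshold 0.05, common biological coefficient of variation 0.246). CPM uses the library total as denominator, and RPKM uses exonic lengths of GENCODE M21. A level of 1 CPM was 9.52 counts in the shallowest library.

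The members and lists were chosen with earlier results of these data known. Values by library are given for the members of smallest and largest p in each role, the D cyclins, Mki67 and Top2a, and up to 8 more called in another comparison. Of each pathway list, up to 4 called genes of smallest p are named. The alternatives were DESeq2 1.42.0, limma voom (3.58.1), 2 other scalings, no filter, only the groups compared, replicate blocks, thinning, a Y-linked covariate and left-out libraries. The script was tested on simulated data.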

Additional observations from a re-analysis of the deposited data

Results flagged for a closer look

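In 10 of the 200 member-by-group sets, 1 library stood far from the others by Dixon's criterion, and chance flags about 1 in 20 such sets. The members vary together, so these sets are not independent. B-depleted combination replicate 5 accounted for 6 of the 10, each time as the lowest of its group. It held Cdk2 at 48.6 CPM (next lowest 70.2), Foxm1 at 61.9 CPM (95.9), Mcm7 at 69.6 CPM (110.5), Aurkb at 26.9 CPM (39.8), Birc5 at 25.4 CPM (36.3) and Top2a at 342 CPM (522). B-depleted isotype replicate 5 was the lowest of its group for the helicase subunit Mcm5 (33.0 CPM, next 41.8) and the kinetochore motor Cenpe (61.9 CPM, next 79.9). B-depleted isotype replicate 3 was the highest for Ccnd3 (118 CPM, next 92.2), and WT isotype replicate 1 the lowest for the spindle gene Tpx2 (60.8 CPM, next 76.4).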

How the results depend on the processing

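Among alternatives that kept every library, the WT count of 35 members stayed within 1.5 times except with the Y-linked covariate, which left 0 members and 77 genes. The same covariate left 0 members and 4 genes in B-depleted against WT tumours under the combination, 31 genes for the B-depleted response (48 of 50 members positive, median 0.26, 25 at an unadjusted p under 0.05), 16 under isotype and 0 for the interaction. It turned the sign of 32 members in WT, 13 in the B-depleted response, 8 under isotype, 1 under the combination and 6 for the interaction. Those among the members with values by library were, in WT, Ccnd2 (-0.33), Ccna2 (0.16), E2f1 (0.17), Foxm1 (0.0151), Cdc6 (0.46), Cdt1 (0.18), Mcm7 (0.16), Rrm2 (0.22), Bub1 (0.0289), Bub1b (0.33), Birc5 (0.0875), Cenpa (0.26), Ube2c (0.0173), Nusap1 (0.24), Mki67 (0.17) and Top2a (0.18). In the B-depleted response they were Ccnd2 (-0.0667), Mcm7 (0.30), Cdk1 (0.21), Ccnb1 (0.28), Bub1 (0.24), Birc5 (0.20) and Kif20a (0.16). Under isotype they were Foxm1 (0.0209) and Mybl2 (0.015), and under the combination Ccnd2 (0.0352). For the interaction they were Ccnd2 (0.26), Cdc6 (-0.0613), Bub1b (-0.10) and Nusap1 (-0.0611). Values near 0 also turned, Ccnd3 with limma voom (0.0123) and Rrm2 with thinned counts (0.044). Genes called in the B-depleted response numbered 65, against 388 with DESeq2, 102 with limma voom, 35 with no filter, 6 with only the groups compared and 35 with thinned counts. They numbered 40 without WT isotype replicates 1 and 2, and 592 without B-depleted isotype replicates 3 and 5 and B-depleted combination replicate 2, where 1 member (E2f2) was called. Under isotype 0 genes were called, against 5 with DESeq2, 1 with no filter and 25 without those WT isotype libraries. Under the combination 5545 genes were called, against 3343 with no filter, and 23 members with only the groups compared. For the interaction 5 genes were called, against 1181 (9 members) with DESeq2, 2007 (9 members) without the WT isotype libraries and 0 without the B-depleted libraries. The cause of these shifts was not tested.

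Leaving out 1 library gave 24 to 43 members in WT, 22 to 46 under the combination and 0 to 16 for the interaction. Genes called ran from 11 to 176 in the B-depleted response, 0 to 2 under isotype, 2182 to 7606 under the combination and 0 to 1540 for the interaction. Ccnd3 ran from -0.0992 to 0.0558 in WT and -0.093 to 0.0129 under the combination, and Rrm2 from -0.1205 to 0.0586 in WT. The fit with only the groups compared does not apply to the interaction.

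Of same-numbered pairs of libraries, 9 of 30 by title and 7 of 27 by description correlated above 0.1 (medians 0.03 and -0.03). The correlations ran from -0.36 to 0.55 by either number. Differently numbered pairs were not compared, so these values cannot show whether the numbers pair the libraries. With the replicate block by title or description, 35 and 34 members were called in WT, 42 and 41 under the combination, and 0 elsewhere. The blocks gave 33 and 14 genes in the B-depleted response, 1 and 1 under isotype, and 0 by title for the interaction, and Ccnd3 in WT stood at 7e-04 by title.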
